A study of Mus musculus with 2 samples.

Results

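Claudins, their partner proteins of the tight junction and E-cadherin were followed across the cell classes of the mouse mammary gland. The 10 genes were taken by name from the 32285 genes of the expression matrices: Cldn3, Cldn4, Cldn7, Cldn1, Cldn8 and Cldn5 of the claudin family, Ocln (occludin), Tjp1 (the scaffold ZO-1), F11r (the adhesion molecule JAM-A) and Cdh1 (E-cadherin). All 10 were present in both matrices. Each was read in basal, luminal progenitor, hormone-sensing luminal and vascular endothelial cells, with T cells, which build no tight junctions, as the background.

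The study profiled single cells of the 4th mammary gland with a droplet 3′ kit, version 2, and compared mice with a deletion of Gpm6a, which encodes a membrane glycoprotein first studied in neurons, with wild-type mice. The KO library carried the Gpm6a deletion and the WT library did not. Both came from C57BL/6 virgin females of 6 to 8 weeks, 3 littermates per genotype, whose glands were digested with collagenase III and trypsin and sorted for live (DAPI-) cells. The labels do not say whether the littermates of a genotype were pooled, nor which part of Gpm6a was deleted. They call the material mammary epithelial cells, but fibroblasts and immune cells made up much of both libraries. With 1 library per genotype, a difference between KO and WT has no replicate check, so no test was made between them and the intervals given cover counting error only. A unique molecular identifier (UMI) marks 1 captured RNA molecule, and a level is the share of a gene among the UMIs of its class and library, scaled to 1000000 (CPM). Levels are compared within a gene between classes or libraries, not between genes.

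Tight junctions seal the space between neighbouring epithelial or endothelial cells. Claudins and occludin span the membrane and meet those of the next cell, JAM-A sits beside them, and ZO-1 ties them to actin from inside. E-cadherin holds the adherens junction just below. In the mammary gland, the luminal cells that line the duct carry the seal, while the contractile basal (myoepithelial) cells lie outside it against the basement membrane, and the vessel wall has its own claudin, claudin-5.

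The start-site windows of the 3 claudins that separated luminal from basal cells, of the claudin found chiefly in luminal progenitors and of the endothelial claudin are shown because levels of these genes carry the results below. Each is the 250 bases before the start in the RefSeq table for GRCm38.p6, 5′ to 3′ on the strand of the gene. They lie at chr5:134985964-134986213 (+ strand) for Cldn3, chr5:134946935-134947184 (- strand) for Cldn4, chr11:69964529-69964778 (+ strand) for Cldn7, chr16:26371840-26372089 (- strand) for Cldn1 and chr16:18776597-18776846 (+ strand) for Cldn5. Capitals mark the E-box CAGGTG, read on either strand (CACCTG on the other), the letters that Snail and Zeb repressors are known to bind in the E-cadherin promoter.
Cldn3: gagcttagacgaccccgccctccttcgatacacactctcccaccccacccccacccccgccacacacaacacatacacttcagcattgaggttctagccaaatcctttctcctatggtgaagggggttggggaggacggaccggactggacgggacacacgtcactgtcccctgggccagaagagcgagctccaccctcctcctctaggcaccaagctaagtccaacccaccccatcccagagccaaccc
Cldn4: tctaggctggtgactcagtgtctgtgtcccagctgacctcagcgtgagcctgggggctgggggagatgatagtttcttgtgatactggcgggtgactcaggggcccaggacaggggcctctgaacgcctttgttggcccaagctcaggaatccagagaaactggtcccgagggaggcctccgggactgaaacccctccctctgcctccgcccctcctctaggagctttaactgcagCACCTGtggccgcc
Cldn7: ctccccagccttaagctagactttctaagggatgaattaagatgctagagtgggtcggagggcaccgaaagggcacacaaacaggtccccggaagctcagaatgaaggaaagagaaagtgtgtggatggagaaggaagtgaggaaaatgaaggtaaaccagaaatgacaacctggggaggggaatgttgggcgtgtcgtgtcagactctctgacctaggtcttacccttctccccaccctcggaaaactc
Cldn1: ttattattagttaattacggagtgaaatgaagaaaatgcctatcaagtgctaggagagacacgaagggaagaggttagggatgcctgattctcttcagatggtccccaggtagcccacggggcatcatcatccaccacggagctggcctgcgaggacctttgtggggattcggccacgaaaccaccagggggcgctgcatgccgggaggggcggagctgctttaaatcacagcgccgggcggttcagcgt
Cldn5: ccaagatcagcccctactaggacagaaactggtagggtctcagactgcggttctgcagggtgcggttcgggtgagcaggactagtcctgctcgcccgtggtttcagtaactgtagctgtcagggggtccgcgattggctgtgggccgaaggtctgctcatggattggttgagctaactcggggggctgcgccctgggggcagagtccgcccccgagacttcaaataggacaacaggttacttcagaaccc
Of these 5 windows, that of Cldn4 held the E-box, once, its first base 14 bases before the start. A second window that the table gives for Cldn7 held it 2 times, and a second one for Ocln also 2 times, while F11r had it once and Tjp1 not at all. The same letters stood in 17.2% of all 32851 windows of this length. A match is a description of the letters and not a binding site. No window was at hand for Cdh1 or Cldn8.

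Cldn3 and Cldn4 are single-exon neighbours on chromosome 5 with 39279 bases between them. On GRCm38, with GENCODE M21 gene models, Cldn3 (ENSMUSG00000070473) spans chr5:134986214-134987472 on the + strand and Cldn4 (ENSMUSG00000047501) chr5:134945119-134946934 on the - strand. Wbscr25 lies over Cldn3 on the other strand, with 9.83 CPM in KO and 9.53 CPM in WT luminal progenitors. Cldn7 (ENSMUSG00000018569) spans chr11:69964779-69967885 (+). Cldn1 (ENSMUSG00000022512), Cldn5 (ENSMUSG00000041378) and Cldn8 (ENSMUSG00000050520) share chromosome 16, at chr16:26356642-26371841 (-), chr16:18776847-18778262 (+) and chr16:88560828-88563183 (-). Ocln (ENSMUSG00000021638) spans chr13:100496507-100552718 (-), Tjp1 (ENSMUSG00000030516) chr7:65296165-65527781 (-), F11r (ENSMUSG00000038235) chr1:171437535-171464603 (+) and Cdh1 (ENSMUSG00000000303) chr8:106603351-106670246 (+).

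The matrices held 11442 barcodes and 139757797 UMIs in KO, and 12291 barcodes and 160026788 UMIs in WT. After filtering, 10491 KO and 10568 WT cells with medians of 9535 and 11081 UMIs were analysed, and 21 of their barcodes occurred in both libraries. Gpm6a itself was at 0.224 CPM (95% interval 0.150 to 0.321, 29 UMIs) in KO and 1.90 CPM (1.69 to 2.14, 284 UMIs) in WT. Most of the WT UMIs came from 55 mesothelial-like cells, and endothelial cells held 22 UMIs in KO and 20 in WT. Without the mesothelial-like class, the level was 0.209 CPM in KO and 0.612 CPM in WT. Of 36 clusters, made without the 10 genes and the other junction genes, 13 stayed unnamed, with 7.97% of the KO cells and 19.8% of the WT cells.

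The classes were named from marker lists. Basal-like cells numbered 941 in KO and 1401 in WT, with Krt14 at 3230 CPM in KO and 2736 CPM in WT. Luminal progenitor-like cells numbered 444 in KO and 270 in WT, with Elf5 at 175 CPM in KO and 111 CPM in WT. Hormone-sensing luminal-like cells numbered 1246 in KO and 968 in WT, with Prlr at 1571 CPM in KO and 1570.4 CPM in WT. Vascular endothelial-like cells numbered 334 in KO and 365 in WT, with Cdh5 at 1282 and 1155 CPM, and T-like cells 668 and 266. These markers were present in the class they name, and the suffix is left out from here on.

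The luminal claudins Cldn3, Cldn4 and Cldn7 were high in both luminal classes and low in basal cells of both libraries. Cldn3, a barrier-forming claudin, reached 1039.6 CPM (1014 to 1066) in KO and 1139 CPM (1105 to 1174) in WT luminal progenitors, and 546 CPM (537 to 556) in KO and 553 CPM (543 to 563) in WT hormone-sensing cells. In basal cells it was at 13.98 CPM (12.2 to 15.9) in KO and 11.4 CPM (10.0 to 12.9) in WT, against 11.6 CPM (8.34 to 15.8) and 6.14 CPM (2.94 to 11.3) in T cells. The basal interval overlapped that of T cells in both libraries, so these counts did not separate Cldn3 in basal cells from T cells. Of the 41 UMIs in KO T cells, 1 cell held 36.6%. Fibroblasts were below basal cells, at 4.31 CPM (3.68 to 5.01) in KO and 4.99 CPM (4.34 to 5.70) in WT. Cldn7, a claudin also found along the lateral membrane, ran the same way: 807 CPM (784 to 829) in KO and 1078 CPM (1045 to 1111) in WT progenitors, 464 CPM (456 to 473) and 586 CPM (577 to 596) in hormone-sensing cells, and 6.52 CPM (5.33 to 7.90) and 9.33 CPM (8.11 to 10.7) in basal cells. Its T cell levels of 3.40 CPM (1.76 to 5.94) in KO and 5.52 CPM (2.53 to 10.5) in WT overlapped the basal ones.

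Cldn4 differed from both in order. It was highest in hormone-sensing cells, at 1078 CPM (1065 to 1091) in KO and 1235 CPM (1221 to 1249.7) in WT, and lower in progenitors, at 770.2 CPM (748 to 793) in KO and 1021 CPM (989 to 1053) in WT. Basal cells had 24.9 CPM (22.5 to 27.5) in KO and 28.6 CPM (26.4 to 30.9) in WT, above the 4.82 CPM (2.81 to 7.71) and 8.59 CPM (4.70 to 14.4) of T cells. Hormone-sensing and progenitor intervals did not overlap in either library for any of the 3 claudins, with progenitors above for Cldn3 and Cldn7 and hormone-sensing cells above for Cldn4.

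Shares of cells gave the same picture once every cell was thinned to 2000 UMIs. A Cldn3 UMI was found in 83.6% (79.8 to 87.0) of 440 KO and 84.5% (79.5 to 88.7) of 258 WT progenitors, against 98.9% and 97.8% before thinning. In hormone-sensing cells the thinned share was 58.0% (55.2 to 60.8) of 1244 KO and 61.4% (58.2 to 64.5) of 951 WT cells, in basal cells 2.66% (1.73 to 3.91) of 939 KO and 2.53% (1.77 to 3.50) of 1382 WT cells, and in T cells 1.36% (0.623 to 2.56) of 663 KO and 1.52% (0.416 to 3.85) of 263 WT cells. T cells were the shallower class before thinning, with medians of 4645 UMIs in KO and 5157.5 in WT against 14430 and 12805 in basal cells. UMIs of all 3 luminal claudins were found together in 38.6% of KO and 55.4% of WT progenitors, and in 28.6% and 32.5% of hormone-sensing cells. In basal cells 93.6% in KO and 90.9% in WT had a UMI of none of the 3.

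**Figure D1:**
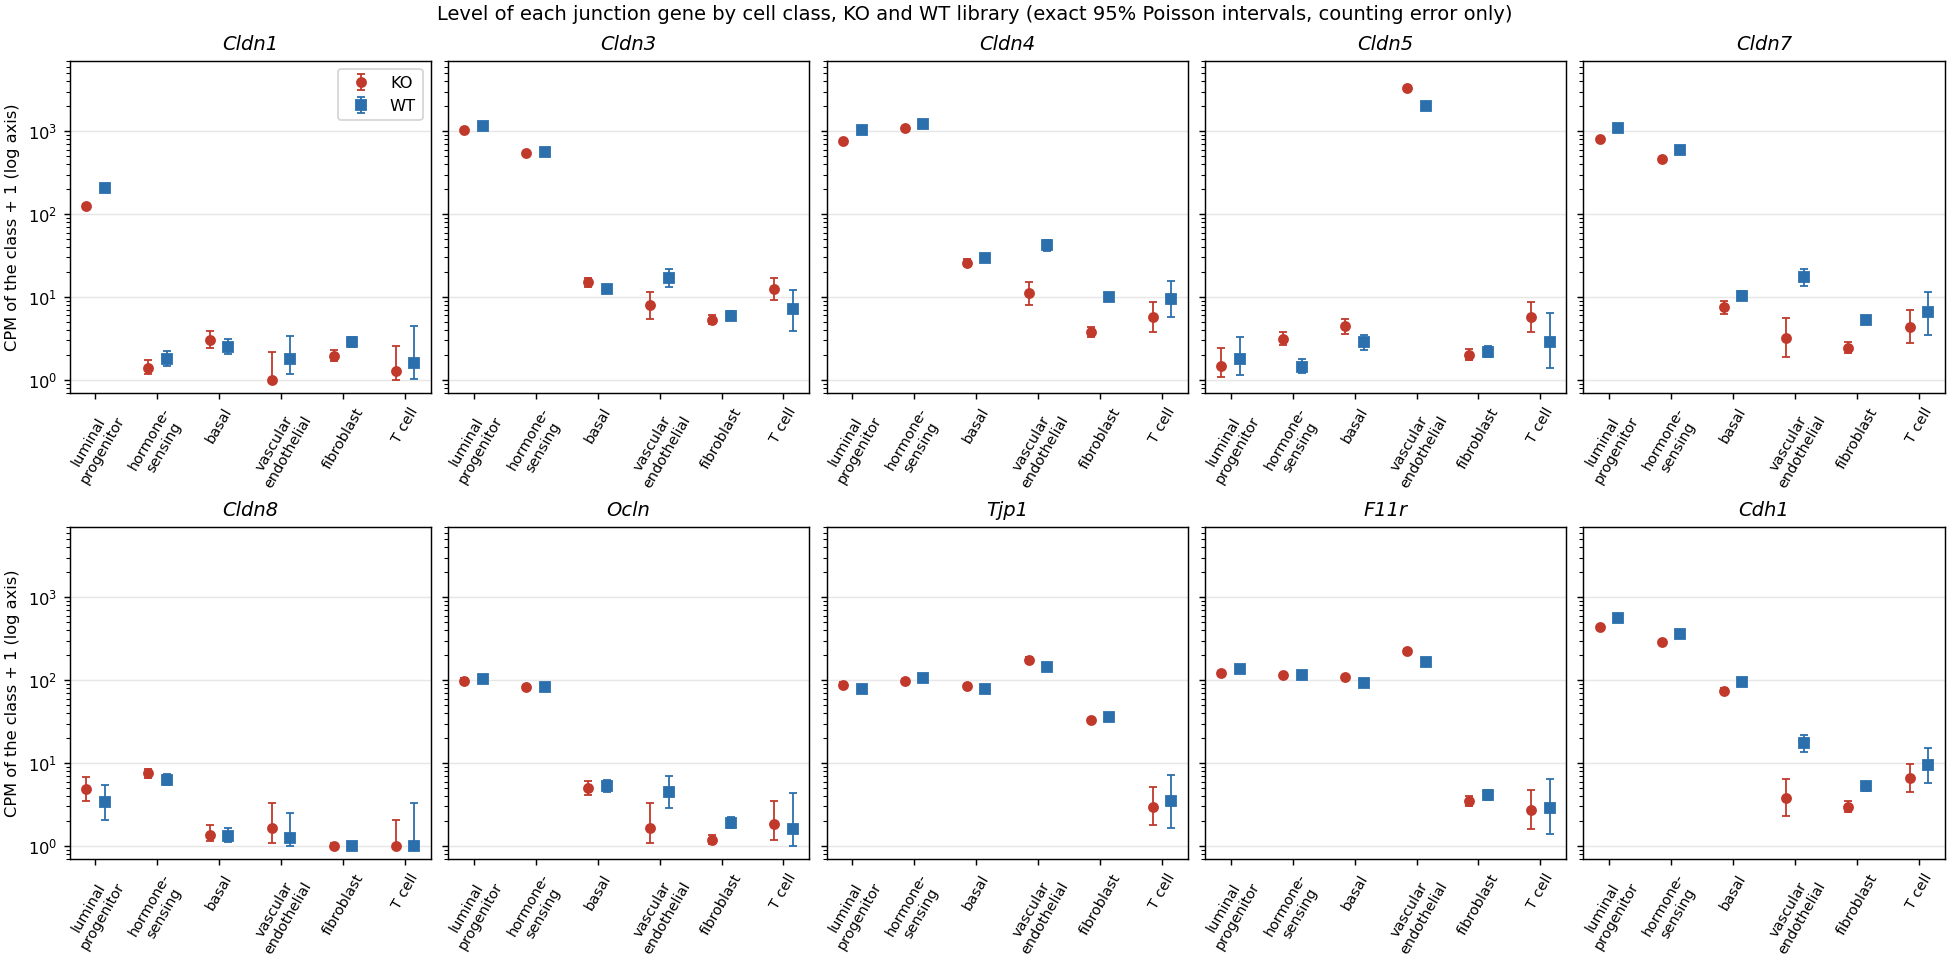
Level of each of the 10 junction genes by cell class, as CPM plus 1 on a log axis, KO library in red circles left of the WT library in blue squares, with exact 95% Poisson intervals that cover counting error only. Cldn3, Cldn4 and Cldn7 stand high in both luminal classes, Cldn1 in luminal progenitors, Cldn5 in vascular endothelial cells, and Tjp1 and F11r in all epithelial and endothelial classes.

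Among classes of at least 50 cells per library, Cldn1 was highest in luminal progenitors. It is a barrier claudin best known from the epidermis. Luminal progenitors had 124 CPM (115 to 133; 756 UMIs) in KO and 203 CPM (189 to 218; 769 UMIs) in WT, against 0.400 CPM (10 UMIs) and 0.785 CPM (18 UMIs) in hormone-sensing cells. Basal cells stood at 2.07 CPM in KO and 1.53 CPM in WT, and T cells had 1 UMI in each library. Among those classes dendritic cells came next, at 16.9 CPM (13.6 to 20.8) in KO and 19.99 CPM (16.0 to 24.7) in WT, with no overlap between the intervals of these 2 classes. The mesothelial class, below that size, had 411 CPM (271 to 597; 27 UMIs in 14 cells) in KO and 105 CPM (78.3 to 139; 50 UMIs in 55 cells) in WT, with 55.6% and 32.0% of the UMIs in a single cell. Within progenitors the gene was uneven: 45.0% of KO and 33.0% of WT cells had no UMI, and the median cell had 66.8 CPM in KO and 134 CPM in WT. After thinning, 16.8% (13.4 to 20.6) of KO and 29.1% (23.6 to 35.0) of WT progenitors had a UMI (54.95% and 67.0% before thinning), against 0% (0 to 0.555) of 663 KO and 0% (0 to 1.39) of 263 WT T cells.

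Cldn8, a claudin known for its place in the distal tubule of the kidney, was at the low end. Hormone-sensing cells had 6.52 CPM (5.56 to 7.60; 163 UMIs) in KO and 5.32 CPM (4.42 to 6.35; 122 UMIs) in WT, and progenitors 3.93 CPM (2.52 to 5.85) and 2.38 CPM (1.09 to 4.52). Basal cells held 6 UMIs in KO and 7 in WT, or 0.376 and 0.314 CPM. T cells held none in either library, where 3 counts would amount to 0.850 CPM in KO and 1.84 CPM in WT. The intervals of both luminal classes overlapped in each library. Thinned to 2000 UMIs, 1.61% of KO and 0.841% of WT hormone-sensing cells kept a UMI (11.4% and 10.2% before thinning), so the gene was close to the limit of detection at that depth.

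Ocln, the first membrane protein of the tight junction to be identified, followed the luminal claudins. Progenitors had 97.6 CPM (89.9 to 106) in KO and 103 CPM (93.0 to 114) in WT, and hormone-sensing cells 82.7 CPM (79.2 to 86.3) and 81.9 CPM (78.2 to 85.7). Basal cells had 4.01 CPM (3.09 to 5.12) in KO and 4.26 CPM (3.45 to 5.21) in WT, with 0.850 CPM (0.175 to 2.48) and 0.614 CPM (0.0155 to 3.42) in T cells. The basal level was thus low but, by these intervals, above that of T cells in both libraries.

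E-cadherin was graded. Cdh1 stood at 436 CPM (419 to 453) in KO and 566 CPM (543 to 591) in WT progenitors, at 284 CPM (278 to 291) and 360.5 CPM (353 to 368) in hormone-sensing cells, and at 74.1 CPM (69.9 to 78.5) and 93.6 CPM (89.6 to 97.7) in basal cells. T cells had 5.67 CPM (3.46 to 8.75) in KO and 8.59 CPM (4.70 to 14.4) in WT. None of these intervals overlapped within a library.

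Tjp1 and F11r were shared by all junction-forming classes. Among classes of at least 50 cells per library, Tjp1 was highest in endothelium, at 175 CPM (161 to 190.2) in KO and 142 CPM (130.2 to 155) in WT, then in hormone-sensing cells, at 97.8 CPM (94.0 to 102) and 105 CPM (101 to 109), where the hormone-sensing interval overlapped that of progenitors in KO and not in WT. Progenitors, at 87.1 CPM (79.9 to 94.9) in KO and 77.8 CPM (69.2 to 87.2) in WT, did not differ beyond counting error from basal cells, at 84.3 CPM (79.8 to 88.9) and 77.8 CPM (74.2 to 81.6). Pericytes or smooth muscle cells, at 55.03 CPM in KO and 46.8 CPM in WT, and fibroblasts, at 31.8 and 34.6 CPM, also held it, while T cells had 1.98 CPM (7 UMIs) and 2.45 CPM (4 UMIs).

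Among the same classes F11r was highest in endothelium, at 222 CPM (206 to 239.5) in KO and 165 CPM (152 to 178) in WT. The few mesothelial cells had 198 CPM (105 to 338) of F11r in KO and 169 CPM (134 to 210.0) in WT, and 365 CPM (234 to 543) and 114 CPM (85.6 to 149) of Tjp1. It was at 120.2 CPM (112 to 129) in KO and 134 CPM (122 to 146) in WT progenitors, 114 CPM (110.2 to 119) and 115 CPM (111 to 119.5) in hormone-sensing cells, and 108 CPM (103 to 113) and 92.6 CPM (88.6 to 96.7) in basal cells. The hormone-sensing interval overlapped both of its neighbours in KO and neither in WT. Macrophages had 47.3 CPM in KO and 55.8 CPM in WT, and T cells 1.70 and 1.84 CPM. Thinned shares in endothelium were 34.7% (29.4 to 40.3) of 311 KO and 28.9% (24.0 to 34.1) of 329 WT cells, against 74.3% and 62.5% before thinning, and 0.151% (0.00382 to 0.837) of KO and 0% (0 to 1.39) of WT T cells.

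Cldn5, the claudin of the blood vessel wall, was endothelial in both libraries. Its level was 3336 CPM (3273 to 3401; 10543 UMIs) in KO and 2017 CPM (1972 to 2064; 7527 UMIs) in WT endothelial cells. Elsewhere the highest level among classes of at least 50 cells per library was 14.7 CPM in KO pericytes or smooth muscle cells and 32.3 CPM in WT B cells, where 1 cell held all 32 UMIs. Progenitors had 3 UMIs in each library. After thinning, 77.5% (72.4 to 82.0) of KO and 71.7% (66.5 to 76.5) of WT endothelial cells had a UMI (82.0% and 81.4% before thinning), against 0.905% and 0.380% of T cells. Of the other 9 genes, Tjp1 and F11r stood clear of T cells in endothelium in both libraries.

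**Figure D2:**
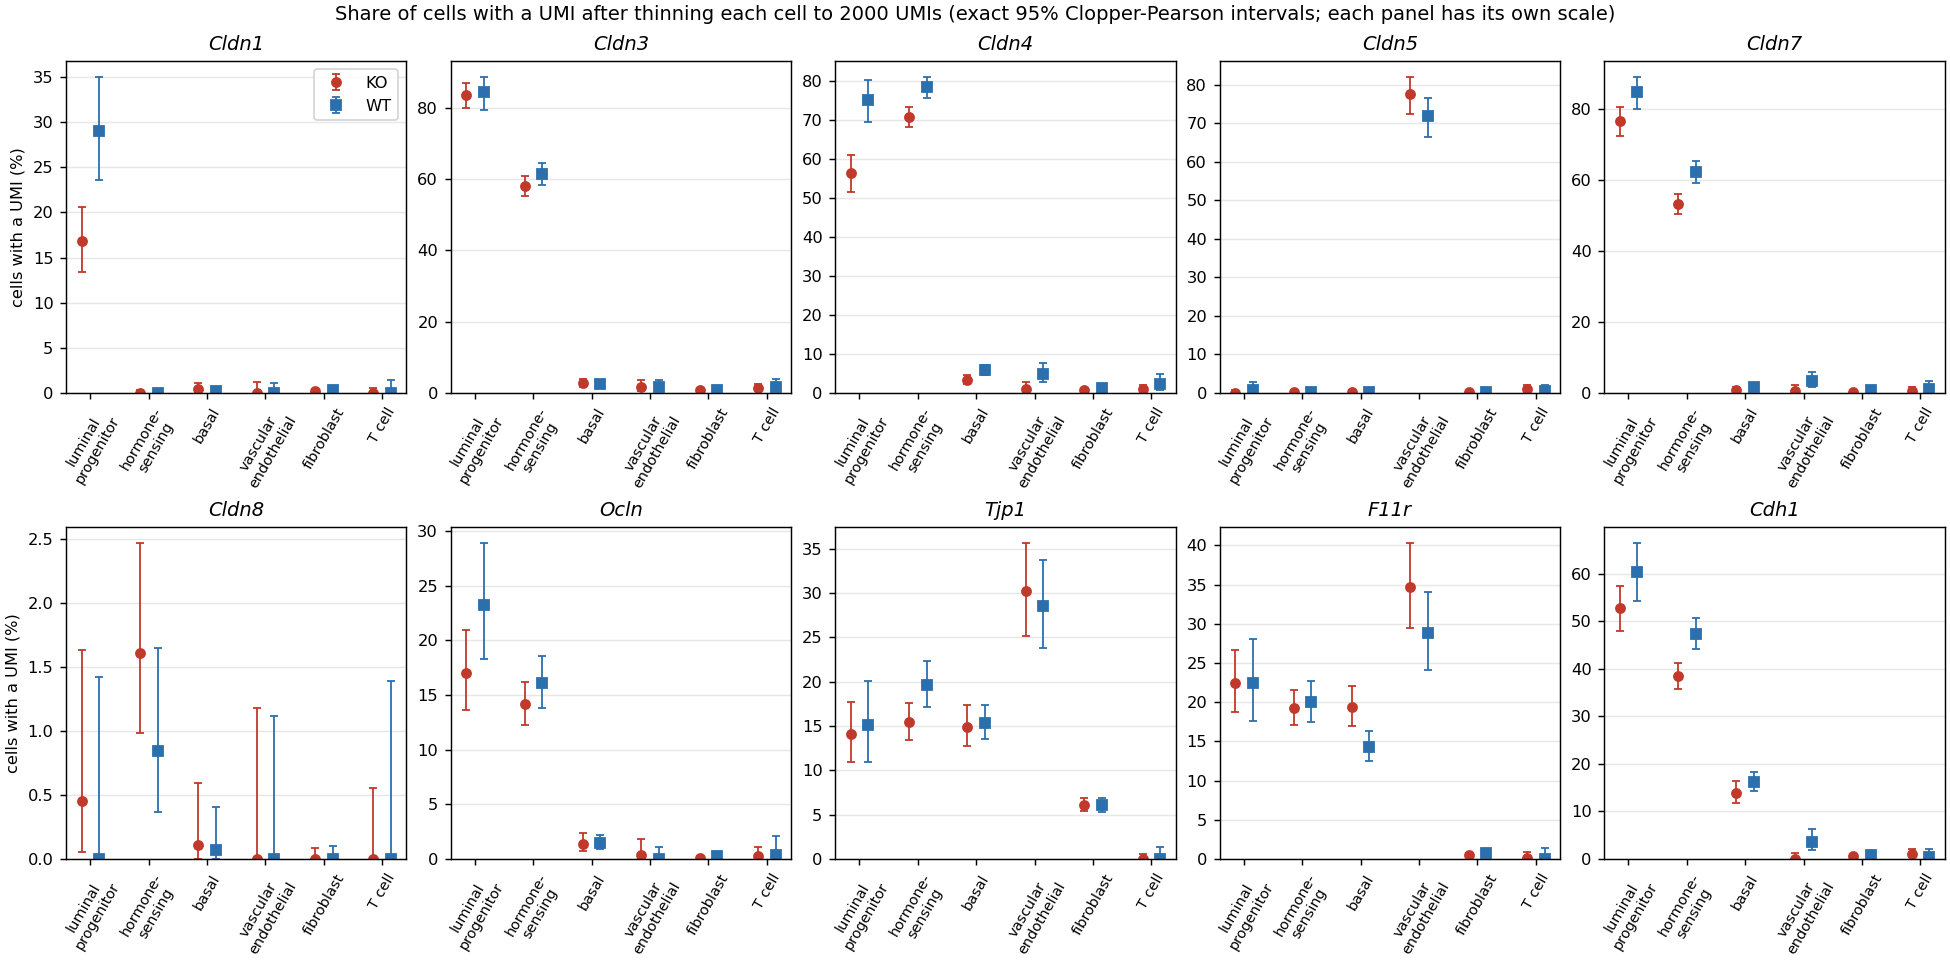
Share of cells with a UMI of each gene, in percent, after every cell was thinned to 2000 UMIs, by cell class, KO in red circles left of WT in blue squares, with exact 95% Clopper-Pearson intervals and a scale of its own in each panel. T cells sit at 2.28% or below in every panel, and the basal shares of Cldn3 and Cldn7 are close to theirs.

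Counted over classes, a gene was called higher when it was at least 2-fold higher in both libraries on the log2 scale with 1 CPM added. Between hormone-sensing and basal cells, 6 of the 10 genes were higher in the hormone-sensing class and none lower, where 13.2% of 15457 genes tested were higher and 15.5% lower. The ratios of the levels were 71.2-fold in KO and 62.8-fold in WT for Cldn7, 43.3-fold and 43.2-fold for Cldn4, 39.1-fold and 48.5-fold for Cldn3, 20.6-fold and 19.2-fold for Ocln, 17.3-fold and 16.9-fold for Cldn8 and 3.84-fold and 3.85-fold for Cdh1. The 4 others were Cldn1, Cldn5, Tjp1 and F11r. The size of the folds differed with called doublets kept and all cells clustered and named anew. The classes then had 870 KO and 1310 WT basal cells and 1365 and 1218 hormone-sensing cells. Basal cells held 39.2 CPM in KO and 57.3 CPM in WT of Cldn7. They held 85.2 and 104.6 CPM of Cldn4 and 48.5 and 53.4 CPM of Cldn3. Hormone-sensing cells held 456 and 566 CPM, 1037 and 1175 CPM, and 539.6 and 536 CPM of these genes in that order. Whether the kept doublets or the changed classes moved the folds was not tested. The basal levels of Cldn3 and Cldn7 were also not called above those of T cells. Between luminal progenitors and basal cells, 7 were higher, the same 6 and Cldn1 (59.8-fold in KO and 133-fold in WT), and none lower, where 8.86% of genes tested were higher and 11.9% lower. Between progenitors and hormone-sensing cells, Cldn1 alone was called, 309-fold higher in KO and 259-fold in WT progenitors, where 9.74% of genes were higher and 8.58% lower. These folds rest on the 10 and 18 hormone-sensing UMIs: with cells classed one by one, Cldn1 was at 87.2 CPM in KO and 139 CPM in WT progenitors and at 9.10 and 10.5 CPM in hormone-sensing cells. Cldn3 came close at 1.90-fold in KO and 2.06-fold in WT.

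Against T cells, 9 of 10 genes were called higher in progenitors (22.3% of all genes tested, with 13.5% lower). In hormone-sensing cells 8 of 10 were (20.7%, with 13.2% lower). The count was 5 of 9 measured genes in basal cells (22%, with 13.1% lower) and 3 of 7 in endothelium (25.4%, with 12% lower). None of the measured genes was at least 2-fold lower than in T cells in both libraries in any of these 4 classes. Smaller differences were not counted: Cldn5 was at 0.491 CPM in KO and 0.794 CPM in WT progenitors, against 4.82 and 1.84 CPM in T cells. The 5 of basal cells were Cldn4, Ocln, Tjp1, F11r and Cdh1, and the 3 of endothelium were Cldn5, Tjp1 and F11r. In numbers of genes per cell after thinning, the mean was 3.40 in KO and 3.96 in WT progenitors, 2.71 and 3.06 in hormone-sensing cells, 1.46 and 1.43 in endothelial cells, 0.571 and 0.580 in basal cells and 0.0528 and 0.0608 in T cells.

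The other junction genes were mixed. Beside the counts of these lists, 13.2% of all genes tested were higher and 15.5% lower in hormone-sensing than in basal cells. For progenitors over basal cells the shares were 8.86% higher and 11.9% lower. Of 27 other tight junction proteins, 9 were at least 2-fold higher in hormone-sensing than in basal cells, 5 lower and 13 neither, and for progenitors over basal cells 10 were higher, 3 lower and 14 neither. Crb3, a polarity protein of the apical membrane, had 150.1 CPM in KO and 159 CPM in WT hormone-sensing cells and 174 and 209 CPM in progenitors, against 5.27 and 3.14 CPM in basal cells. Tjp3 (ZO-3), a scaffold related to ZO-1, had 19.6 and 18.2 CPM in hormone-sensing cells and 0.125 CPM in KO and 0.180 CPM in WT basal cells, while Tjp1 itself was nearly level. The multi-domain scaffold Mpdz ran the other way, at 0.640 CPM in KO and 1.00 CPM in WT hormone-sensing cells against 38.1 and 43.9 CPM in basal cells.

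Among other claudins, 3 of the 8 measured were higher in hormone-sensing than in basal cells, 1 lower and 4 neither. Cldn10, an ion-channel-forming claudin, had 275 CPM in KO and 204 CPM in WT hormone-sensing cells, 12.9 and 8.47 CPM in progenitors and 3.39 and 3.86 CPM in basal cells. Cldn23 was, like Cldn1, on the progenitor side, at 39.1 CPM (34.3 to 44.4) in KO and 24.1 CPM (19.4 to 29.6) in WT progenitors, against 7.04 and 5.41 CPM in hormone-sensing cells.

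Some junction genes, named here after their values were seen, were higher in basal cells. Cdh3 (P-cadherin) stood at 97.4 CPM in KO and 109 CPM in WT basal cells, against 1.72 and 1.53 CPM in hormone-sensing cells and 1.31 and 2.91 CPM in progenitors. Nectin3, an adhesion molecule of adherens junctions, had 43.5 CPM in KO and 39.4 CPM in WT basal cells, and the desmosomal proteins Perp, at 313 and 305 CPM, and Dsp, at 308 and 342 CPM, were also highest there among the 3 epithelial classes. For the 10 adherens junction genes, 1 was higher in hormone-sensing cells, 3 lower and 6 neither, and for the 7 desmosomal genes 3 were higher, 2 lower and 2 neither. Of 15 regulators of epithelial junctions, 3 were higher, 3 lower and 9 neither. Snai2, a repressor of the Snail family, was at 277 CPM (269 to 285) in KO and 212 CPM (206 to 218) in WT basal cells, and at 1.56 and 2.27 CPM in hormone-sensing cells. Elf3, an epithelial transcription factor, was higher on the luminal side, at 75.3 CPM in KO and 84.9 CPM in WT progenitors against 10.0 and 12.7 CPM in basal cells.

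**Figure D3:**
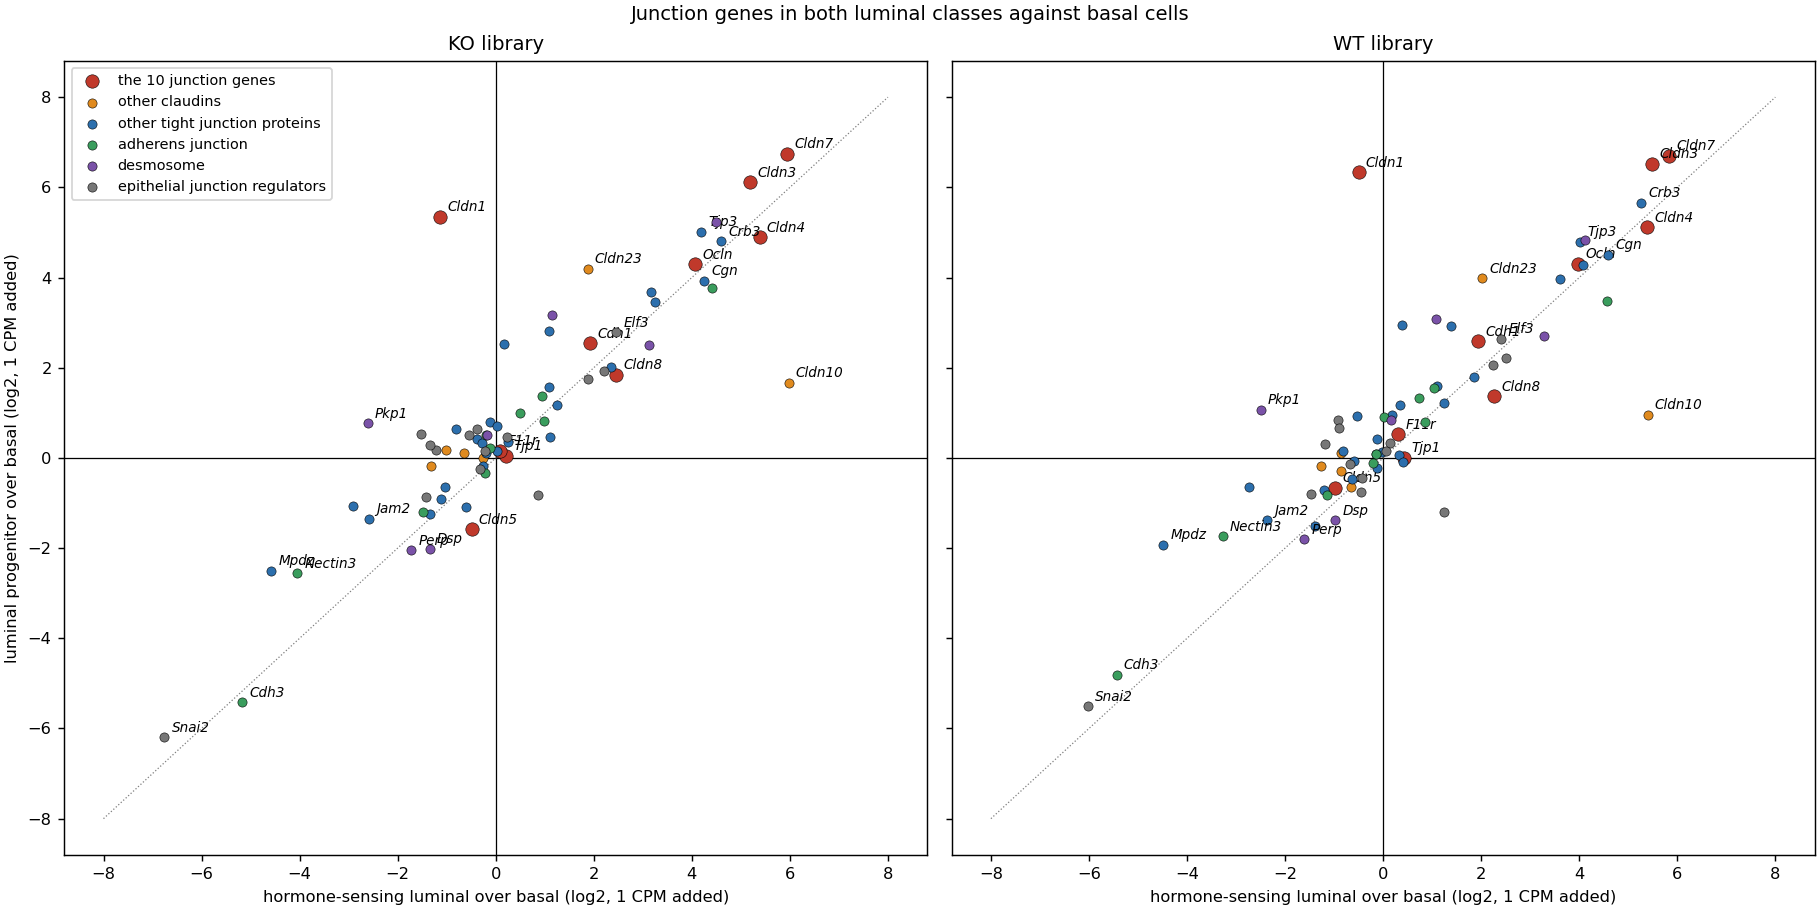
Log2 ratio of luminal progenitor over basal cells (vertical) against hormone-sensing luminal over basal cells (horizontal), with 1 CPM added, for the 10 junction genes and the other junction lists, KO library left and WT library right. Cldn3, Cldn4 and Cldn7 lie at the upper right in both libraries, Cldn1 is high on the vertical axis only, and Cdh3 and Snai2 lie at the lower left.

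The basal class held a contractile cluster of 772 KO and 1152 WT cells and a second, deeper cluster of 169 and 249 cells. Tjp1 was at 96.8 CPM in KO and 87.4 CPM in WT cells of the contractile cluster, and at 40.5 and 51.6 CPM in the other. Cdh1 had 82.9 and 102 CPM in the contractile cluster, and 43.6 and 70.3 CPM in the other. F11r differed less, at 111 CPM in KO and 92.1 CPM in WT contractile cells and 96.4 and 93.9 CPM in the other cluster. The contractile cells were thus the richer in Tjp1 and Cdh1 in both libraries.

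Genes with the most similar pattern were sought over 22 points, 11 classes in each of the 2 libraries, among 15168 genes, by Pearson correlation of log2 CPM with 1 added. The points of a library share its preparation and depth, and the 2 points of a class share its definition, so the values are descriptions. Cldn3 was most like Marveld3 (0.975), Cldn7 (0.974) and Cgn (0.969), of which Marveld3 and Cgn (cingulin) encode tight junction proteins. Cldn4 was most like Smim22 (0.978), Cldn7 (0.975) and Krt19 (0.974), and Ocln like Krt18 (0.983), Cldn7 and Erbb3 (0.973). Cdh1 was most like Krt8 (0.982), Epcam (0.980) and Galnt3 (0.976). Cldn1 had Cdhr1 (0.926), Slco1a5 (0.841) and Sptb (0.838), and Cldn8 had Lrrc26 (0.951), Tfcp2l1 (0.938) and Prr15l (0.934). For Cldn5 the nearest were Clic5 (0.952), Cyyr1 (0.943) and Cdh5 (0.942), the last being VE-cadherin. Tjp1 lay nearest Lrp5 (0.982), Bcar1 (0.971) and Amotl2 (0.966), and F11r nearest Efna1 (0.939), Etl4 (0.937) and Jup (0.934).

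The comparison of KO with WT asks what junction genes of each class did in the library with the Gpm6a deletion. In both luminal classes, Cldn4, Cldn7 and Cdh1 were lower in KO than in WT by less than 1.5-fold, with counting intervals that excluded 1, and Ocln and F11r had intervals that held 1. A gene was counted as higher or lower when it had at least 20 UMIs over both libraries and a ratio of at least 1.5-fold on the log2 scale with 1 CPM added. In progenitors 1 of 9 measured genes was lower (Cldn1) and none higher, where 7.68% of 11100 genes were lower and 6.78% higher. In hormone-sensing cells 1 of 10 was higher (Cldn5) and none lower, where 1.62% of 13548 genes were higher and 5.57% lower. In basal cells 1 of 9 was higher (Cldn5) and none lower, where 2.44% of 13819 genes were higher and 3.7% lower. The median log2 ratio of the measured genes was -0.15 in progenitors, -0.06 in hormone-sensing cells and 0.11 in basal cells, beside -0.02, -0.06 and -0.02 for all genes tested.

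Cldn7 had a KO over WT ratio of 0.748 (0.718 to 0.780) in progenitors and 0.792 (0.772 to 0.812) in hormone-sensing cells. For Cldn4 it was 0.755 (0.723 to 0.788) and 0.873 (0.858 to 0.888), and for Cdh1 0.769 (0.726 to 0.815) and 0.788 (0.764 to 0.814). Cdh1 was also lower in KO basal cells, at 0.792 (0.737 to 0.851). These 3 genes thus lay on the same side in both luminal classes, and over the 18 or 19 settings tried their log2 ratios ran from -0.34 to -0.25 for Cldn7, from -0.24 to -0.11 for Cldn4 and from -0.45 to -0.26 for Cdh1 in hormone-sensing cells. In progenitors the ranges were wider, from -0.45 to 0.01, from -0.56 to -0.35 and from -0.42 to -0.11. There the upper ends for Cldn7 and Cdh1 came with each library clustered alone, a setting in which the progenitor class grew mainly in WT. Cldn3 stood at 0.913 (0.878 to 0.949) in progenitors and 0.988 (0.964 to 1.01) in hormone-sensing cells, and F11r in basal cells at 1.16 (1.09 to 1.24).

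Per cell, Cldn7 in progenitors was lower in KO at low and high percentiles alike. The median progenitor had 762 CPM in KO and 1000.5 CPM in WT, with 10th percentiles of 296 and 435 CPM and 90th percentiles of 1426 and 1789 CPM. For Cdh1 in hormone-sensing cells the median was 238 CPM in KO and 325 CPM in WT. Luminal keratins did not all follow: in progenitors Krt8 was at 5718 CPM in KO and 7105 CPM in WT, Krt18 at 5584 and 5302 CPM and Epcam at 5621 and 5030.3 CPM. Marker sums of other lineages also differed in these classes. The 7 fibroblast markers summed to 270.2 CPM in KO and 800.5 CPM in WT progenitors and to 94.9 and 387 CPM in hormone-sensing cells, and the 8 basal markers to 193 and 450.1 CPM in progenitors and to 242 and 148 CPM in hormone-sensing cells. Only 5 KO and 9 WT progenitors held at least 30 UMIs of 3 fibroblast collagen and matrix genes. With these left out, the log2 ratios in progenitors were -0.44 for Cldn7, -0.43 for Cldn4 and -0.41 for Cdh1. With all cells they were -0.42, -0.41 and -0.38. Cells with fewer such UMIs stayed in, and the part of fibroblast RNA in these ratios was not tested.

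Cldn1 in luminal progenitors had a KO over WT ratio of 0.608 (0.550 to 0.674), a log2 ratio of -0.71 with 1 CPM added. The 90th percentile of cells was 294 CPM in KO and 515 CPM in WT. The 8 progenitor markers summed to 13299 CPM in KO and 14064 CPM in WT, with 4 of 8 higher in KO. Among them Elf5, a progenitor transcription factor, was at 175 CPM in KO and 111 CPM in WT, and the milk gene Lalba at 69.6 and 136 CPM. Leaving out cells with fibroblast UMIs gave 124 CPM in KO and 208 CPM in WT. The direction turned when each library was clustered alone, to a log2 ratio of 0.27 with 124 CPM in KO and 103 CPM in WT. The class then had 449 KO and 647 WT cells, against 444 and 270 in the main clustering. It had thus grown mainly in WT, so this setting did not compare like with like. Which cells joined it was not tested. When the deeper unnamed cluster with the same leading markers was added, the level was 66.0 CPM in 898 KO and 103 CPM in 581 WT cells, a log2 ratio of -0.64.

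Other junction genes of progenitors had medians of -0.36 for 9 adherens junction genes, -0.20 for 7 desmosomal genes and -0.16 for 24 other tight junction proteins on the log2 scale, beside -0.02 for all genes. Jup (plakoglobin), a protein of both junction types, was at 376 CPM in KO and 624 CPM in WT. Ctnna1 (alpha-catenin), which ties cadherins to actin, was at 239 and 360 CPM, and Dsp (desmoplakin) at 75.5 and 131 CPM. Those 3, with Nectin3 (6.55 and 11.1 CPM) and Mpdz (5.90 and 10.8 CPM), were past 1.5-fold lower, and Cldn23, with a ratio of 1.63, and Zeb2, at 5.57 and 2.91 CPM, past 1.5-fold higher. In hormone-sensing cells none of 24 other tight junction proteins, 5 other claudins and 7 desmosomal genes passed 1.5-fold. There 1 of 10 adherens junction genes was lower (Nectin3), and 3 of 15 regulators were lower (Zeb2, Twist1 and Grhl3). Of all genes tested in that class, 1.62% were higher and 5.57% lower.

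In basal cells, 2 of 26 other tight junction proteins were higher (Marveld3 and Crb3) and 1 lower (Ildr2). There 1 of 7 desmosomal genes was lower (Pkp2), and 2 of 14 regulators were lower (Twist1 and Twist2). None of the other claudins and adherens junction genes passed 1.5-fold. Of all genes tested in basal cells, 2.44% were higher and 3.7% lower. The Cldn5 count of basal cells rested on 55 UMIs in KO and 41 in WT, of which 1 KO cell held 44, with 13 UMIs of endothelial markers. The Cldn5 count of hormone-sensing cells rested on 54 UMIs in KO and 10 in WT, of which 3 KO cells with 16 to 38 endothelial marker UMIs held 94.4%. In the contractile cluster alone, Cldn5 was at 0.726 CPM in KO and 2.27 CPM in WT.

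**Figure D4:**
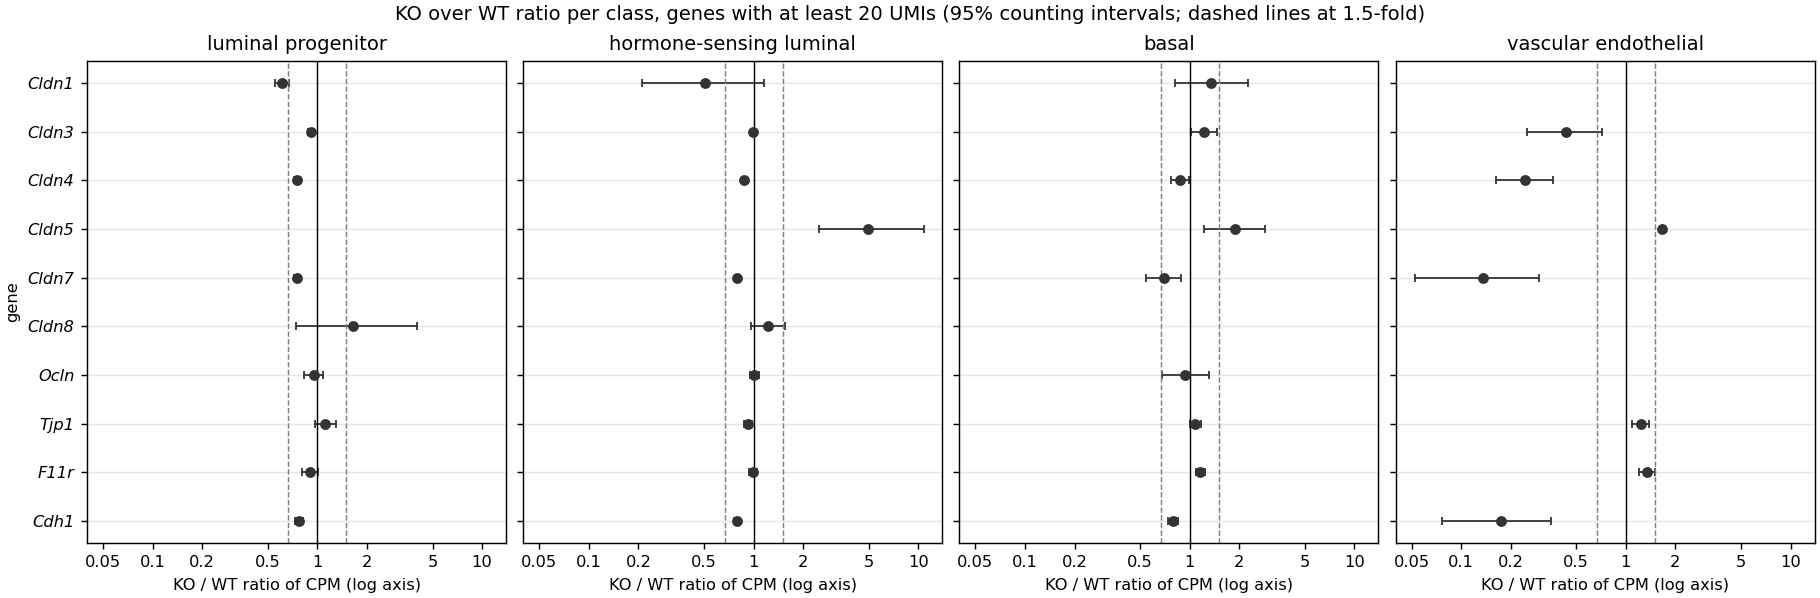
KO over WT ratio of the level of each junction gene with at least 20 UMIs in 4 cell classes, on a log axis, with 95% counting intervals and dashed lines at 1.5-fold. Cldn4, Cldn7 and Cdh1 lie left of 1 in both luminal classes, Cldn5 lies right of 1 in endothelium, and the luminal claudins lie far left there.

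In endothelium Cldn5 was higher in KO, with a ratio of 1.65 (1.61 to 1.70) and a log2 ratio of 0.73. The median cell had 2401 CPM in KO and 1477 CPM in WT, the 90th percentile was 9491 and 6126 CPM, and 18.0% of KO and 18.6% of WT cells had no UMI. Over 19 settings the log2 ratio ran from 0.64 to 0.92. F11r followed at 1.35 (1.21 to 1.51) and Tjp1 at 1.23 (1.09 to 1.39). Endothelial identity genes gave a mixed picture: the 8 vascular markers summed to 5682 CPM in KO and 5652 CPM in WT with 3 of 8 higher in KO. Gpihbp1, a capillary gene, was at 809 CPM in KO and 594 CPM in WT, and Selp, a venule gene, at 1236 and 1865 CPM.

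The makeup of the endothelial class differed between libraries. The 7 lymphatic markers summed to 1921 CPM in KO and 209.9 CPM in WT, most of it Ccl21a at 1646 and 35.4 CPM, and Glycam1, a gene of high endothelial venules, was at 10892 CPM in KO, in 5.39% of cells, and 0.804 CPM in WT. The cells that held a UMI of Prox1, Lyve1, Flt4, Mmrn1, Ccl21a or Glycam1 numbered 106 in KO and 113 in WT. Flt4 was found in 22.5% of KO and 26.8% of WT cells, each of the others in at most 8.98% and 4.38%. Whether all of these were lymphatic or venule cells was not tested. Without them, Cldn5 was at 3793 CPM in KO and 2004 CPM in WT, a log2 ratio of 0.92 against 0.73 with them. Clustered more finely, with 152 KO and 134 WT cells in the class, it was at 5764 and 3563 CPM.

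Cldn3, Cldn4, Cldn7 and Cdh1 were lower in KO endothelium, so that 4 of 7 measured genes were lower and 1 higher, where 11.8% of 11024 genes were lower and 4.61% higher. Cldn4 was at 10.1 CPM (32 UMIs) in KO and 41.3 CPM (154 UMIs) in WT, and Cldn7 at 2.22 CPM (7 UMIs) and 16.3 CPM (61 UMIs). Epithelial keratins moved with them, with Krt8 at 43.7 CPM in KO and 152 CPM in WT and Krt18 at 42.4 and 103 CPM, and Col1a1 was at 279 and 638 CPM. When the 7 KO and 47 WT cells with at least 3 UMIs of Epcam, Krt8 and Krt18 were left out, Cldn4 was at 4.00 CPM (12 UMIs) in KO and 4.90 CPM (15 UMIs) in WT, no longer past 1.5-fold. Cldn3 (7 UMIs in KO and 12 in WT), Cldn7 (2 and 5 UMIs) and Cdh1 (3 and 7 UMIs) then fell under the minimum of 20 UMIs and could not be counted. The median log2 ratio of -1.10 with all cells, beside -0.07 for all genes, is over 7 genes and the 0.34 without these cells over 4, so the medians are not comparable. Cldn5 was then at 3445 CPM in KO and 2211 CPM in WT. Fibroblasts, which build no tight junctions, had Cldn4, Cldn7, Ocln and Cdh1 lower in KO, 4 of 9 measured genes with none higher, where 2.75% of 14875 genes were lower and 1.77% higher. Cldn4 was there at 2.80 CPM (110 UMIs) in KO and 9.01 CPM (385 UMIs) in WT, and Cdh1 at 1.96 CPM (77 UMIs) and 4.26 CPM (182 UMIs), levels near or below those of T cells. The 4 desmosomal genes measured in endothelium were all past 1.5-fold lower as well, Perp at 6.96 CPM in KO and 23.3 CPM in WT. Among junction genes that vessels use, Esam, an endothelial adhesion molecule, was at 664 CPM (636 to 693) in KO and 616 CPM (591 to 641) in WT, Jam2 at 216 CPM (199.9 to 233) and 198 CPM (184 to 213), and Cldn11 at 7.28 and 1.34 CPM.

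**Figure D5:**
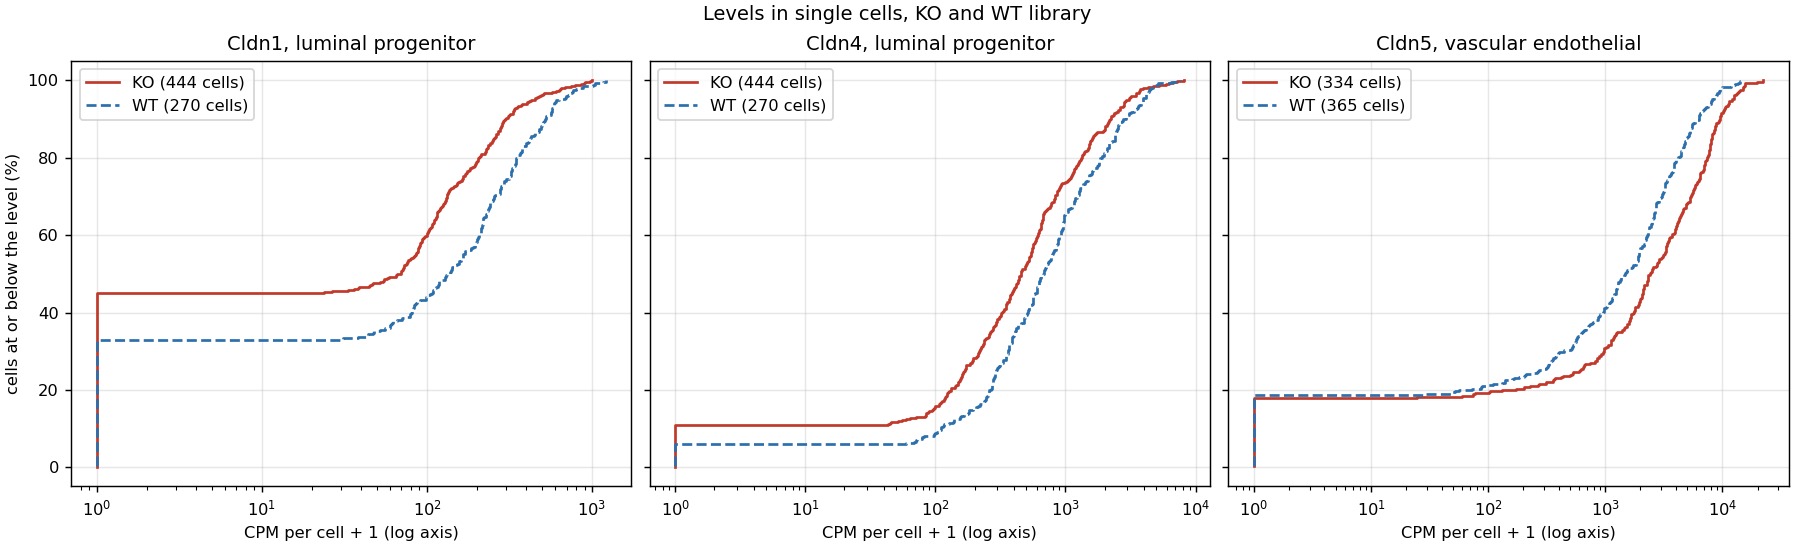
Cumulative share of cells (percent, vertical) at or below a level (CPM of the cell plus 1, log axis) for Cldn1 and Cldn4 in luminal progenitors and Cldn5 in vascular endothelial cells, KO as a solid red line and WT as a dashed blue line. Over most of the range the KO curve lies above the WT curve, toward lower levels, for Cldn1 and Cldn4, and below it, toward higher levels, for Cldn5, with wide overlap between libraries.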

How the data were processed

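Single cells of the 4th mammary gland were measured in 1 KO and 1 WT library. The authors deposited UMI counts per gene and barcode, made with Cell Ranger 5.0.1 per the file headers, and the submitters' processing notes name mm10 and Seurat 3.2.0. Whether counting used strand is not given in the sources used here. Barcodes below 500 genes or 1000 UMIs, or with mitochondrial UMIs above 10%, were dropped. Doublets were removed above a Scrublet score of 0.3, chosen after the scores were seen because the automatic threshold marked almost no WT cells. This took out 416 cells in each library (3.81% of KO and 3.79% of WT). Of all barcodes, 33 occurred in both libraries, and they were kept. Cells of both libraries were clustered together (scanpy 1.11.5, leidenalg 0.10.2, 2000 variable genes without junction genes, 30 components, 20 neighbours, resolution 1) and named from marker lists. A cluster stayed unnamed where 1 library gave 5% of its cells or less.

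UMIs were summed per class and library and given as CPM with exact 95% Poisson intervals, and shares of cells with Clopper-Pearson intervals after thinning to 2000 UMIs (scipy 1.17.1). Intervals and the floor of 3 counts cover counting error only. Ratios of KO over WT and between classes used a pseudocount of 1 CPM on the log2 scale, counts of genes needed 20 UMIs over both libraries, and ratios of CPM have conditional binomial intervals. Depth sets the precision: 139757797 UMIs in KO and 160026788 in WT. No test was made between genotypes, since each has 1 library. Simulated data were used to check the ratios and the counts past 1.5-fold, not the intervals. The 10 genes, the junction lists and the markers were chosen with earlier results of these data known. Text names all 10 genes in every epithelial and endothelial class, from the other lists at most the 3 highest and 3 lowest past 1.5-fold per class, and the 3 most similar genes. Genes of other lists named for differences between classes, and those given beside a result, were chosen after their values were seen. Alternatives changed the cell filters, the doublets, the clustering, the scaling (TMM of edgeR 4.0.16), the pseudocount, the minimum UMIs and the cells of a class. Gene models came from GENCODE M21, which matched 99.8% of the IDs.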

Additional observations from a re-analysis of the deposited data

How the results depend on the processing

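No paired analysis was possible because each genotype has 1 library, and no library could be left out. Every count of junction genes higher in 1 epithelial class than in another stayed within 1.5 times under each change of cell filter, doublets or clustering. These counts were not rerun with other scaling, pseudocounts, minimum UMIs or thinning. The counts against T cells were not rerun at all. Of the counts and medians, 206 values stayed, 30 moved and 4 turned direction. Of single genes, 862 stayed, 427 moved and 8 turned. Only values past 1.5-fold (2-fold between classes) are counted as turned, and smaller ones also crossed 0, such as Cldn1 in basal cells (0.28, down to -1.38), Cldn3 in progenitors (-0.13, up to 0.34) and Cldn7 in basal cells (-0.46, up to 0.10). The cause was not tested. In basal cells the count higher in KO was 0 with a pseudocount of 5 CPM, at least 100 UMIs, means over cells, thinning, a mitochondrial limit of 5%, all barcodes, the contractile cluster alone or doublets kept, and 2 with each library clustered alone. The basal count lower was 1 with means over cells or the contractile cluster alone, and 2 with thinning, all barcodes or cells classed one by one. In progenitors the count higher was 1 with a pseudocount of 0.1 CPM, means over cells or all barcodes, and with each library clustered alone the count lower was 0, the median 0.037 and Cldn1 at 0.27. That last setting took 449 KO and 647 WT cells as progenitors, against 444 and 270 in the main clustering. In hormone-sensing cells the count lower was 1 with a pseudocount of 0.1 CPM, all barcodes or doublets kept, the count higher 0 with 5 CPM, at least 100 UMIs or doublets kept, and the median -0.20 with thinning. In endothelium the count lower was 1 with at least 100 UMIs or thinning. It was 0 at resolution 2 or without cells holding at least 3 epithelial UMIs. The median turned to 0.36, 0.11, 0.39 and 0.34 in that order, each over the 4 genes still measured in place of 7. Cldn5 in basal cells turned to -0.64 with all barcodes, -0.14 with doublets kept and -0.92 in the contractile cluster, and in hormone-sensing cells to -0.16 with doublets kept. Cldn4 in endothelium turned to 0.35 at resolution 2. In KO, Cldn1 in hormone-sensing over basal cells turned to 1.68 with cells classed one by one, and Cldn5 in progenitors over hormone-sensing cells to 0.061 with doublets kept. TMM scaling moved all ratios by 0.02 to 0.09. Few UMIs limit Cldn8 in all classes and Cldn5 outside endothelium.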

Other observations

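Several clusters and classes outside the comparisons also held junction genes. An unnamed cluster of 454 KO and 311 WT cells, with a median of 32617 UMIs and led by Aldh1a3 and Wfdc18, had Cldn4 at 764 CPM in KO and 1121 CPM in WT, Cldn3 at 658 and 722 CPM, Cldn7 at 540 and 715 CPM and Cdh1 at 323 and 437 CPM. Its Cldn1 level was 44.3 CPM (41.1 to 47.6) in KO and 72.2 CPM (67.4 to 77.1) in WT. It stayed unnamed because the mean log2 excess of the progenitor markers, 1.96, was within 0.5 of that of the next list, 1.53.

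A cluster of 294 cells, all from the WT library, was led by Cst6, Acot5, Olah and Krt79, with no KO cell to set beside it. In these cells Cdh1 was at 316 CPM (302 to 329), Cldn4 at 223 CPM (212 to 234), Cldn1 at 77.7 CPM (71.3 to 84.7) and Cldn8 at 0.735 CPM (5 UMIs). A Cldn1 UMI was found in 25.2% of them and a Cdh1 UMI in 76.5%.

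Macrophages held luminal claudins above the T cell level, Cldn4 at 134 CPM (122 to 147) in KO and 88.3 CPM (79.4 to 97.9) in WT and Cldn3 at 81.8 CPM (72.3 to 92.2) and 33.4 CPM (28.1 to 39.6). A Cldn4 UMI was found in 20.5% of KO and 17.0% of WT macrophages, and the single richest cell had 20.7% of all Cldn4 UMIs in KO and 23.7% in WT. Epithelial markers were high in this class too: Krt18 at 547 CPM in KO and 230 CPM in WT, Krt8 at 694 and 386 CPM and Epcam at 491 and 290 CPM. T cells had Krt18 at 47.9 and 33.7 CPM. Whether macrophages themselves express these claudins was not tested. Natural killer cells in WT had 43 Cldn3 UMIs, of which 1 cell held 86.0%.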
